A study of Mus musculus with 6 samples.

Results

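The genes described here lie in the Prader-Willi and Angelman imprinted domain of mouse chromosome 7, and 10 of them were followed in clonal MIN6 β cell lines, of 53808 genes in the deposited values. They are *Snhg14*, *Gm24966*, *Ube3a*, *Snrpn*, *Snurf*, *Ndn*, *Magel2*, *Mkrn3*, *Peg12* and *A230103L15Rik*. The domain was selected on the values of *Gm24966*, a small nucleolar RNA (snoRNA) gene that was lower in every *Snd1* KO clone, so its own difference is given as a description, and the question is whether its neighbors in the domain differed as well. MIN6 cells derive from a mouse insulinoma and serve as β cells in culture. All 6 lines came from MIN6 cells that expressed the nuclease Cas9 and were infected with a lentivirus carrying a gRNA, selected with puromycin and expanded from single cells, so that each line is 1 clone and was sequenced as 1 library. In the 3 control clones Cas9 was directed to *intron 2* of *Snd1*, and in the 3 *Snd1* KO clones to *exon 2*. *Snd1* encodes a coregulator protein known to interact with the transcription factor PDX1.

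The domain is expressed according to parent of origin. *Snrpn*, *Snurf*, *Ndn*, *Magel2*, *Mkrn3*, *Peg12* and *Snhg14* are read from the paternal chromosome, and loss of the paternal copies in humans causes Prader-Willi syndrome. *Snhg14* is the host of long arrays of box C/D snoRNAs and, in neurons, runs on across *Ube3a* as an antisense transcript and silences the paternal *Ube3a* copy, whereas loss of the maternal UBE3A, a ubiquitin ligase, causes Angelman syndrome. In most cells outside the brain *Ube3a* is read from both chromosomes. TPM values carry no information on the allele, and in bulk samples fewer cells with a transcript and less of it per cell cannot be told apart.

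*Gm24966* (ENSMUSG00000064377) is a gene of 79 bases on the minus strand of chromosome 7 at chr7:59344073-59344151 (GRCm38, GENCODE M21). Its sequence is shown because it carries the difference on which the domain was selected, beside the sequence shared by 33 genes of the same array, *Gm24866* at chr7:59393561-59393639 among them, and beside *Gm24983* at chr7:59458815-59458883, a shorter copy of 69 bases. All are on the minus strand. The C box and the D box of such snoRNAs, to which the core snoRNA proteins bind, hold the letters TGATGA and CTGA. Capitals mark these letters wherever they occur, and a marked stretch is not assigned to a box.
Gm24966: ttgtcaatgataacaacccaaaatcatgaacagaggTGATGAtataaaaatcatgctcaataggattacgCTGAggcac
Common copy: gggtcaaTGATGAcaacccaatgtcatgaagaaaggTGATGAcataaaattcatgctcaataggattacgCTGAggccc
Gm24983: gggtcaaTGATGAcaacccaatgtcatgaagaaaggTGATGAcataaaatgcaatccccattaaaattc
From the common copy to *Gm24966*, with positions counted from 1 at the 5′ end, 10 bases differed, namely G1T, G2T, G12A, T22A, G23A, G31C, A33G, C43T, T50A and C78A. G12A lies in the first TGATGA of the common copy, and *Gm24966* held these letters only once, from position 37. Among the 137 genes of this array, TGATGA was found on the given strand in 137, within the first 20 bases in 125, and CTGA in 135. *Gm24983* held no CTGA.

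Snord115, as this array is known, is complementary to a stretch of the serotonin receptor mRNA *Htr2c*. The letters of that stretch were found whole in 105 of the 137 genes, and *Gm24966* held all 18 of them from position 53 to 70, in capitals here.
Gm24966: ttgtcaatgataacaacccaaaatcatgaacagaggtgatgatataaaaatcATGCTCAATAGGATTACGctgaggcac
The 18 bases are the same in the common copy, so the substitutions fell outside them. A match of letters is a description of the gene and says nothing of pairing in these cells.

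Markers of the cell line were checked first. Of the 8 β cell markers, all but *Ucn3* were well above the filter in every clone, and together they summed to 43655 to 76860 TPM in control and 47455 to 81431 TPM in *Snd1* KO clones. All 8 were tested, 1 had an unadjusted p under 0.05, and differences ran from -1.27 to 1.84 on the log2 scale. *Slc2a2* was at 160, 65.04 and 172 TPM in control and 91.5, 40.5 and 32.8 TPM in KO clones, with overlap (-1.27, limma adjusted p = 0.607). *Ins1* and *Iapp* differed by 0.59 and 0.39, also with overlap. The 10 neuronal markers, which matter here because *Ube3a* imprinting is neuronal, summed to 838 to 1097 TPM in control and 1043 to 1263 TPM in *Snd1* KO clones, and 9 of them were tested, with 2 at an unadjusted p under 0.05 where 7.96% of all genes tested were. The neurofilament gene *Nefm* was higher in every *Snd1* KO clone, at 128, 143 and 232 TPM in the control lines against 264, 366 and 418 TPM (1.08 on the log2 scale, limma adjusted p = 0.556), and it was the 1 of 9 tested whose groups did not overlap, where 9.69% of all genes tested were higher in every KO clone. *Elavl3*, an RNA-binding protein, and *Stmn2*, a microtubule regulator, differed by 0.53 and 0.35 with overlap. *Dcx*, a microtubule protein of young neurons, lay the other way with overlap, at means of 118 and 74.5 TPM (-0.66, limma adjusted p = 0.685). *Rbfox3*, a marker of mature neurons named after its values were seen, was under the filter at means of 0.356 and 0.256 TPM. The part of neuronal markers in the values of the domain was not tested. Of the other islet markers the glucagon gene *Gcg* was at 174 to 314 TPM in control clones and at 1099.8 TPM in KO clone 1, against 55.2 and 148 TPM in KO clones 2 and 3, with *Hhex*, also named after its values were seen, at 0 in every clone. The β cell peptide gene *Ucn3* was likewise at 41.6 TPM in KO clone 1, whereas the control clones had 4, 3 and 2 reads and the other KO clones at most 0.680 TPM. Exocrine markers summed to at most 0.752 TPM, fibroblast markers to at most 5.31 TPM and leukocyte markers to at most 2.92 TPM. The libraries held 25865183 to 33055380 reads on genes, as recovered from steps in the TPM values, which is more than the number of reads per library that the methods of the study state. The reason was not tested, and if the mates of a pair were counted one by one, the intervals given here for counting error are too narrow. *Snd1* was at 113, 119 and 112 TPM in control clones 1 to 3 and at 14.7, 57.1 and 19.9 TPM in *Snd1* KO clones 1 to 3, so the targeted mRNA was lower in every KO clone and least so in KO clone 2. Its difference of -2.11 on the log2 scale did not pass the test (limma adjusted p = 0.511), so the test missed the targeted gene as well. On the first principal component, with 40.3% of the variance, control clone 3 stood apart from the other control clones, at -12.9 against 30.3 and 33.0, and the KO clones lay at 2.74, -35.1 and -18.05.

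Of the 10 genes, 7 averaged 0.5 TPM or more and were among the 17823 genes tested. *Snurf*, *Magel2* and *Peg12* had no read in any clone. For *Gm24966*, the control lines gave 75.1, 76.8 and 66.5 TPM from 34, 33 and 26 reads, whereas the *Snd1* KO lines gave 2.45, 5.09 and 2.37 TPM from 1, 2 and 1 reads. The mean was 72.8 ± 5.52 TPM in control lines against 3.31 ± 1.55 TPM in KO lines (SD, n = 3 clones each). The KO clones together held 4 reads against 93, which is 4.47% of the control reads at equal depth, a description since the domain was selected on this gene. The library inserts, at 300 to 400 bases on average per the labels, were longer than the gene. Whether reads on *Gm24966* came from the mature snoRNA or from longer RNA that spans it was not tested. The values are therefore no measure of the mature snoRNA alone.

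**Figure D1:**
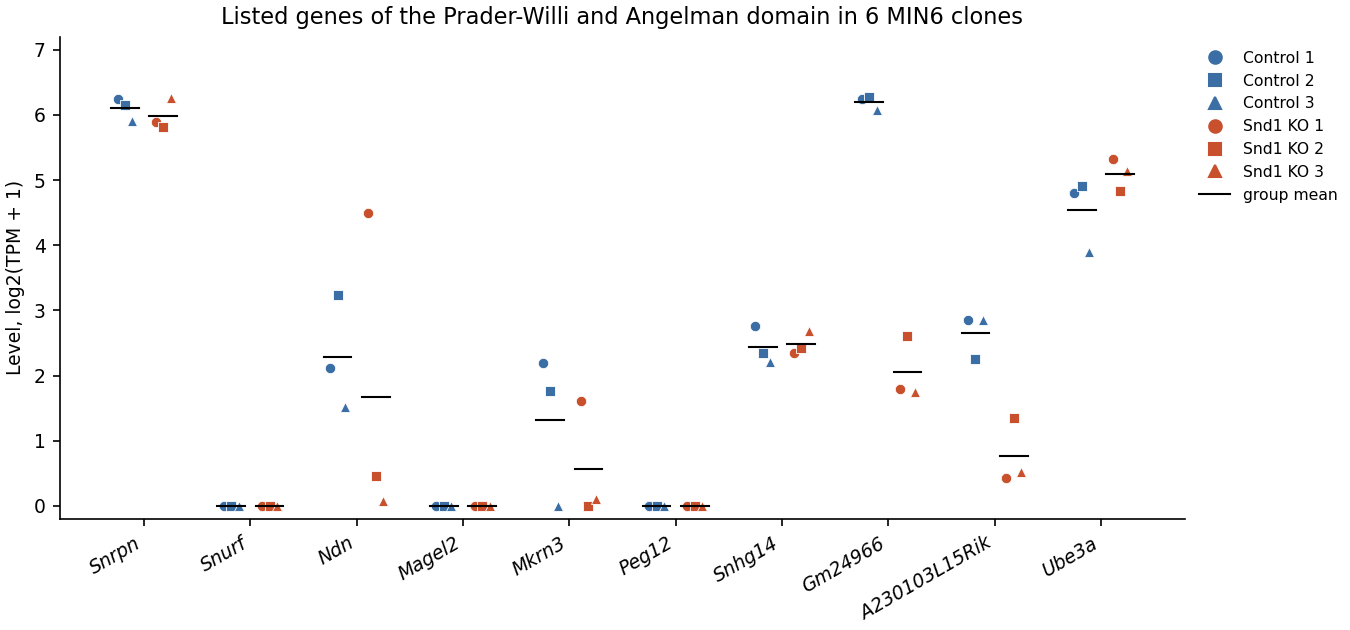
Level of each of the 10 listed genes on the log2(TPM + 1) scale, with 1 point per clone, control clones in blue, *Snd1* KO clones in orange and a line at each group mean (n = 3). The groups stand apart for *Gm24966* and *A230103L15Rik*, overlap for *Snrpn*, *Snhg14*, *Ube3a*, *Ndn* and *Mkrn3*, and sit at 0 for *Snurf*, *Magel2* and *Peg12*.

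Across the whole table, limma called 1 gene at an adjusted p under 0.05 and at least 2-fold, or 0.00561% of the genes tested, and this gene was *Gm24966* itself, from whose call nothing is read since the domain was selected on it. The study, at the same limits, reported many more genes in both directions from its own processing. A single call here therefore does not mean that only 1 gene changed. At an unadjusted p under 0.05 there were 1419 genes, or 7.96%, among them *A230103L15Rik* and *Gm24966*, the gene on which the domain was selected. Both also had every *Snd1* KO clone below every control clone, a pattern that 4.03% of all genes tested had. No listed gene was higher in every KO clone, a pattern that 9.69% of all genes tested had. Without *Gm24966*, then, 1 of 6 listed genes tested, *A230103L15Rik*, had an unadjusted p under 0.05 and groups that did not overlap. Of these 6, 0 passed the adjusted test.

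*Snrpn* (ENSMUSG00000102252, minus strand, chr7:59982495-60140219) encodes SmN, a protein of the spliceosome that stands in for SmB in neurons. Control clones were at 74.6, 70.03 and 59.0 TPM and *Snd1* KO clones at 58.3, 55.5 and 75.6 TPM. The highest and the lowest clone of all were both KO clones, and the groups overlapped. The difference was -0.11 on the log2(TPM + 1) scale (SE 0.16, limma adjusted p = 0.870), with means of 67.9 ± 8.05 and 63.1 ± 10.9 TPM (SD, n = 3 each).

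*Snurf* (ENSMUSG00000102627, chr7:59995449-60005049) encodes a small protein from the same mRNA as SmN. All 216 of its exonic bases are shared with exons of *Snrpn*, so its value of 0 says nothing about its RNA, and reads of these genes cannot be told apart. The same bases belong to *Gm38393*, which GENCODE M21 annotates across *Snrpn* and *Snurf* at chr7:59974149-60005064 with 5216 exonic bases, of which 589 are shared with *Snrpn*. It was chosen for this overlap after its values were seen. *Gm38393* was at 10.02, 6.42 and 2.72 TPM in control and 8.74, 5.42 and 9.34 TPM in *Snd1* KO clones, again with overlap (0.36 on the log2 scale, limma adjusted p = 0.827).

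*Snhg14* (ENSMUSG00000100826, minus strand, chr7:59307924-59975759) spans the region between *Snrpn* and *Ube3a*. Control clones had 959, 645 and 518 reads, or 5.76, 4.08 and 3.60 TPM, and *Snd1* KO clones had 611, 632 and 837 reads, or 4.08, 4.38 and 5.41 TPM. The groups overlapped, and the difference was 0.048 on the log2 scale (SE 0.21, limma adjusted p = 0.966). At equal depth the KO clones held 102% of the control reads, with an exact 95% interval of 95.8% to 108% for counting error alone. The sign of this difference turned when control clone 3 was left out, to -0.068. *Gm24966* lies inside the *Snhg14* span but in none of its annotated exons, which are 19923 bases away on the *Ube3a* side and 40445 bases away on the *Snrpn* side. Of the annotated *Snhg14* exonic bases, 25.4% lie beyond *Gm24966* toward *Ube3a*.

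The box C/D snoRNAs of the domain gave few reads. Of 210 snoRNA genes annotated in it, 137 resembled *Gm24966*, 71 resembled Snord116 and 2 resembled neither. The 71 Snord116-like genes had no read in any clone, and neither did the other 2. Of the 136 genes like *Gm24966*, with 66.2% to 88.6% identity to it, 10 had a read, and none had more than 4 in a clone. Summed over these genes, the control lines held 11, 7 and 7 reads against 0, 1 and 0 in the KO lines, so all control clones were above all KO clones. The ratio was 4.15% of the control reads at equal depth, with an exact 95% interval of 0.101% to 25.4% from 25 and 1 reads. *Gm24983* had 4, 2 and 2 reads in the control lines against 0, 1 and 0, and the other copies were at or under the floor of 3 reads. How reads that match several near-identical copies were counted is not given in the sources used here, and such counting can remove or split the reads of the copies.

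*A230103L15Rik* (ENSMUSG00000109122, minus strand, chr7:59327318-59331189) is a transcript of unknown function that lies 12883 bases from *Gm24966* and 15781 bases from *Ube3a*, and it shares no exonic base with *Snhg14* or *Ube3a*. The control lines gave 138, 80 and 120 reads, against 7, 30 and 9 for the *Snd1* KO lines. In TPM these were 6.22, 3.80 and 6.26 against 0.350, 1.56 and 0.436, and the highest KO clone, clone 2, stayed below the lowest control clone. Means were 5.43 ± 1.41 and 0.782 ± 0.674 TPM (SD, n = 3 each), a difference of -1.89 on the log2(TPM + 1) scale (SE 0.33), which understates the change of low genes and was -3.07 with a pseudocount of 0.01 TPM. The KO clones held 14.1% of the control reads at equal depth, with an exact 95% interval of 10.2% to 19.3% for counting error alone. The difference was not past the threshold over all genes (limma adjusted p = 0.372), and the two-sided exact permutation test gave p = 0.1, the smallest that 3 clones against 3 can give. KO clone 2, with the highest *A230103L15Rik* value of the KO clones, was also the KO clone with the most *Snd1* mRNA, and the part of the latter was not tested.

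The plot by position places the tested genes along the domain. Between the outermost listed genes, from chr7:59228750-62464510, GENCODE M21 annotates 267 genes, of which 46 had a read and 34 were tested. Without *Gm24966*, on which the domain was selected, 33 were tested, of which 6 were lower and 0 higher in every *Snd1* KO clone, patterns that 4.03% and 9.69% of all genes tested had. On the minus strand, beyond *Gm24966* toward and over *Ube3a*, 5 genes were tested and all 5 were lower in every KO clone. This stretch was chosen after its values were seen, so the count is a description. All 5 had higher levels in control clones, and *9330162G02Rik*, with a KO mean of 0.452 TPM, passed the filter of 0.5 TPM through the control clones. On the minus strand before *Gm24966*, from the *Mkrn3* side through *Snrpn*, 23 genes were tested. Of these 9 had at most 3 reads in any clone, with 0 reads in every KO clone for 5 of them, and no direction is read from them. Of the other 14, 1, *Gm24983*, was lower in every KO clone and 0 were higher in every one. *Snhg14*, which spans *Gm24966*, belongs to neither stretch. On the plus strand 4 of 13 genes were tested, and 0 were lower or higher in every KO clone. The median difference over all genes tested was 0.044 on the log2 scale.

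**Figure D2:**
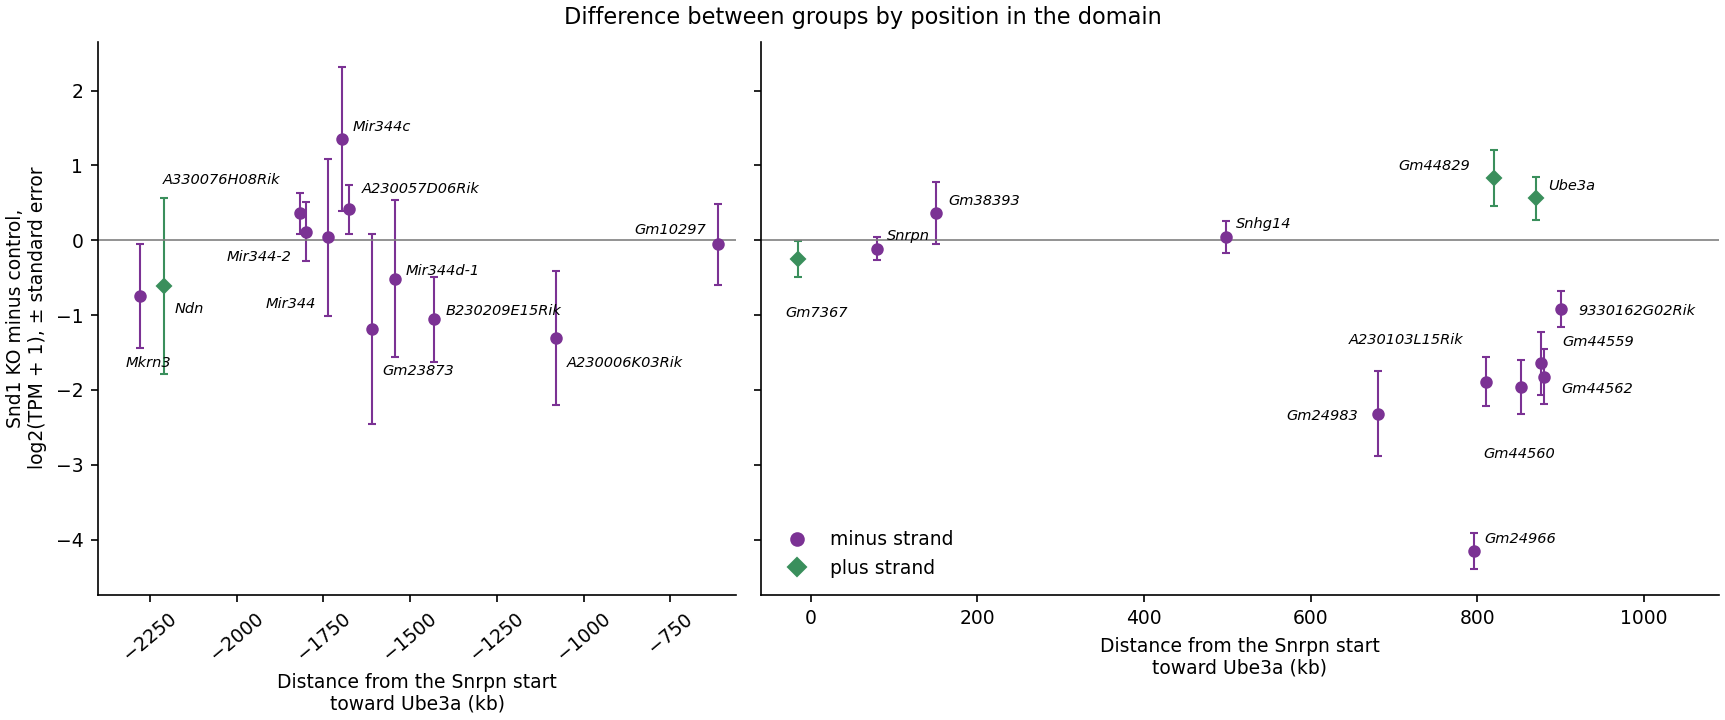
Difference between *Snd1* KO and control clones on the log2(TPM + 1) scale, with the limma standard error as bars, against the distance in kb of the middle of each gene from the *Snrpn* start toward *Ube3a*, for tested genes of the domain without those that had at most 3 reads in every clone. Minus-strand genes (circles) from *Gm24966* onward lie between -0.91 and -4.15, as do *Gm24983* at -2.32 and *A230006K03Rik* at -1.31 before it, and *Mkrn3* lies at -0.74. *Snrpn*, *Snhg14* and *Gm38393* lie between -0.11 and 0.36, and of the plus-strand genes (diamonds) *Ube3a* and *Gm44829* lie above 0 and *Ndn* lies at -0.61.

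Of these minus-strand genes, 4 lie over *Ube3a* and are antisense to it. They were chosen after their values were seen. *9330162G02Rik* had 408, 233 and 245 reads in the control lines, against 75, 69 and 72 in the *Snd1* KO lines (-0.91 on the log2 scale, limma adjusted p = 0.568). *Gm44560* had 139, 90 and 59 reads against 2, 22 and 11 (-1.96, limma adjusted p = 0.382). *Gm44562* had 41, 23 and 27 reads against 0, 9 and 2, and *Gm44559* had 35, 23 and 19 reads against 0, 10 and 5. None of the 4 passed the adjusted test. In each the groups did not overlap, and 4.03% of all genes tested were lower in every KO clone. As the 4 genes were chosen with their values in view, nothing is read from this count. With clone quality weights, the setting that called 895 genes in all, limma gave the 4 genes adjusted p-values of 0.0179 to 0.0339, against up to 0.983 over all alternatives. Summed, they held 623, 369 and 350 reads against 77, 110 and 90. Per 1000000 reads on genes these were 18.8, 11.8 and 13.5 against 2.62, 4.06 and 2.96, and the KO clones held 21.4% of the control reads. *9330162G02Rik*, which passed the filter through the control clones, held most of the summed reads in every clone. The sum, too, is a description. Since the strand setting of the counting is not given in the sources used here, reads of these genes and reads from *Ube3a* introns cannot be told apart, and 65.0% of the *Gm44560* bases are also *Ube3a* exons.

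**Figure D3:**
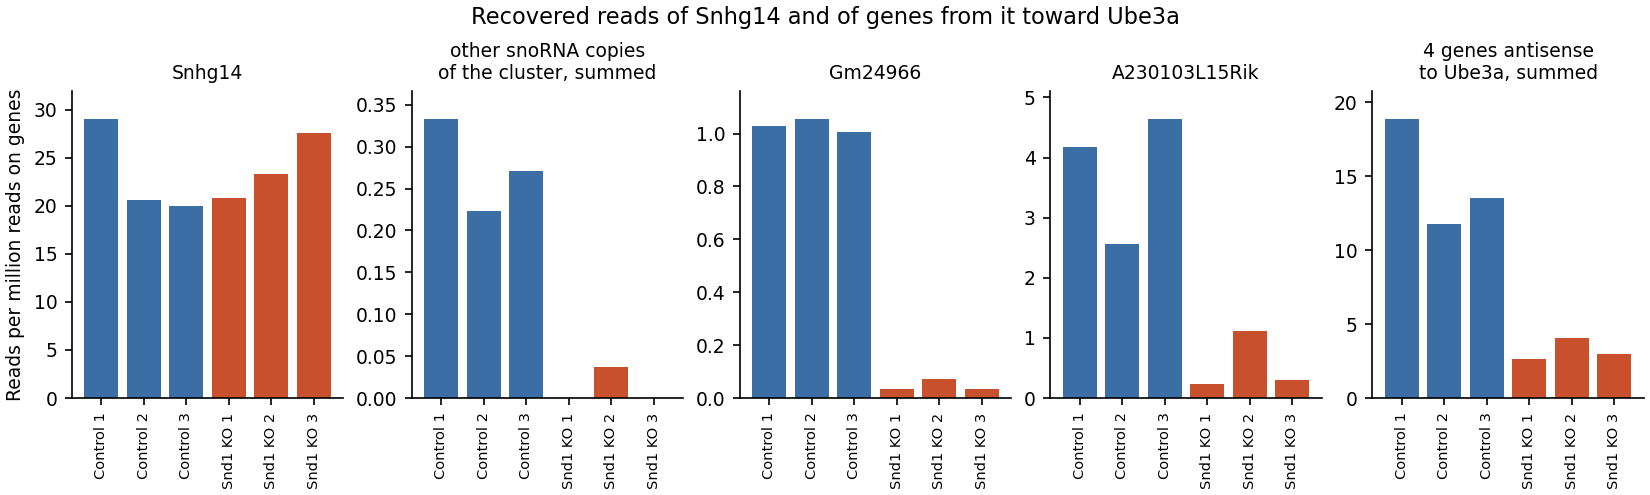
Recovered reads per 1000000 reads on genes in each clone, for *Snhg14*, for the other snoRNA copies like *Gm24966* summed, for *Gm24966*, for *A230103L15Rik* and for the 4 genes antisense to *Ube3a* summed, each panel with its own axis from 0. Control bars (blue) stand above every *Snd1* KO bar (orange) in all panels but that of *Snhg14*, where the bars of both groups lie between 20.03 and 29.0.

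*Ube3a* (ENSMUSG00000025326, plus strand, chr7:59228750-59311536) encodes the ubiquitin ligase. Control clones were at 26.8, 29.0 and 13.96 TPM and *Snd1* KO clones at 39.1, 27.4 and 34.2 TPM. Control clone 3 was the lowest, KO clones 1 and 3 were above every control clone, and KO clone 2 lay between control clones. Means were 23.3 ± 8.12 and 33.6 ± 5.83 TPM (SD, n = 3 each), and the difference of 0.56 on the log2 scale (SE 0.29) did not pass the test (limma adjusted p = 0.625). Without control clone 3 it was 0.25 (SE 0.17, limma adjusted p = 0.568). Per 1000 *Ube3a* reads, the 4 antisense genes had 104, 59.8 and 130 reads in the control lines against 9.77, 20.6 and 12.6 in the KO lines, with no overlap. This is a description, since the 4 genes were chosen after their values were seen. *Gm44829*, a plus-strand gene between *Ube3a* and *Gm24966* and also chosen after its values were seen, had 66, 30 and 27 reads in the control lines against 45, 121 and 85, with overlap (0.83 on the log2 scale, limma adjusted p = 0.607).

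The genes at the far end of the domain differed between clones more than between groups. *Ndn* (ENSMUSG00000033585, chr7:62346569-62350262), which encodes necdin, a growth suppressor of the MAGE family, was at 3.35, 8.41 and 1.86 TPM in control and 21.6, 0.381 and 0.0508 TPM in *Snd1* KO clones. KO clone 1 held the highest level of all with 412 reads, and KO clone 3 the lowest with 1 read. The means of 4.54 ± 3.43 and 7.35 ± 12.4 TPM (SD, n = 3 each) and the difference of -0.61 on the log2 scale point opposite ways (SE 1.17, limma adjusted p = 0.908), and with a pseudocount of 0.01 TPM the latter was -2.23. Without KO clone 1 the difference was -2.02 (limma adjusted p = 0.237), and without KO clone 3 it was 0.19. *Mkrn3* (ENSMUSG00000070527, chr7:62417593-62420139), a ring finger gene known for its part in the timing of puberty, was at 3.56, 2.38 and 0 TPM in control and 2.05, 0 and 0.0737 TPM in KO clones. A clone of each group had no *Mkrn3* read, and the groups overlapped (-0.74 on the log2 scale, SE 0.69, limma adjusted p = 0.781, and -1.88 with a pseudocount of 0.01 TPM). *Mkrn3* and *Ndn* were both highest, among the KO clones, in KO clone 1, the clone with the most *Gcg* and *Ucn3*, and the part of these markers was not tested. *Magel2* (chr7:62377010-62381640), a partner of ubiquitin ligases, and *Peg12* (chr7:62461871-62464510), a single-exon gene of the same cluster, were at 0 in every clone, where a count of 0 allows up to 3 reads per clone.

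**Figure D4:**
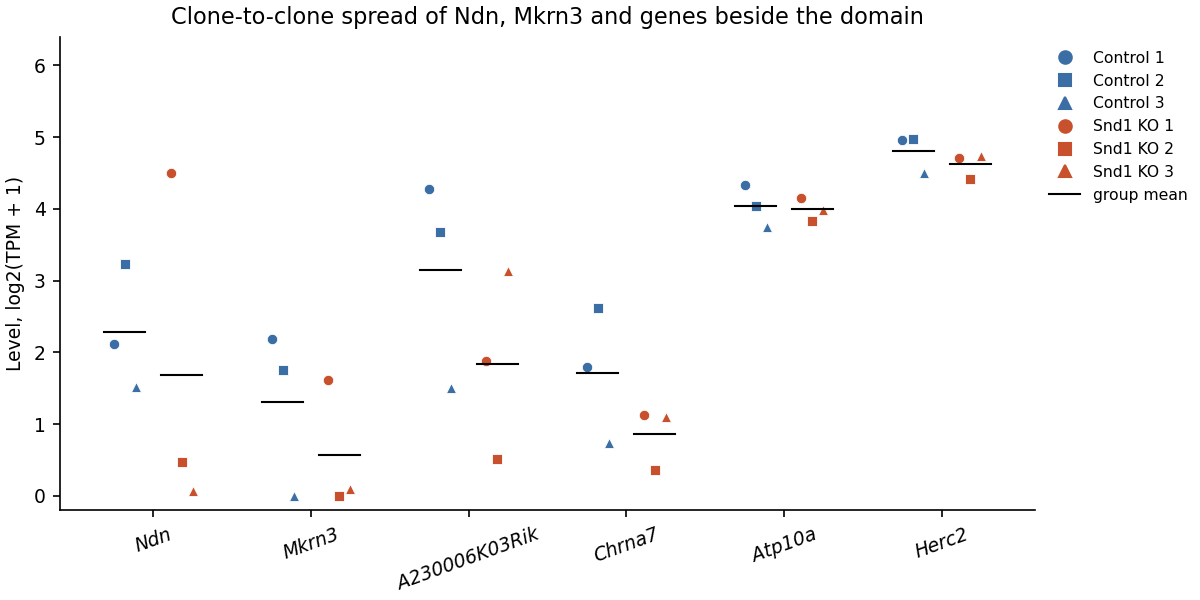
Level on the log2(TPM + 1) scale in each clone of *Ndn*, *Mkrn3*, *A230006K03Rik* and the neighboring genes *Chrna7*, *Atp10a* and *Herc2*, with control clones in blue, *Snd1* KO clones in orange and lines at group means (n = 3). *Ndn* runs from 0.0508 TPM in KO clone 3 to 21.6 TPM in KO clone 1, while *Atp10a* and *Herc2* stay close together in the 6 clones.

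Levels of different genes were compared per length, as TPM over the length of all exons of a gene without counting overlapping exons again. On this scale *Snrpn* was highest, at 88.4 ± 12.1 TPM over the 6 clones (SD), and its lowest clone, at 74.8 TPM, was above the highest *Ube3a* clone, at 53.8 TPM. *Ube3a* followed at 39.1 ± 11.7 TPM. *Ndn* at 4.32 ± 6.0 and *Snhg14* at 3.68 ± 0.679 TPM did not differ beyond their spread, and *Mkrn3* was at 0.976 ± 1.11 TPM. *Gm24966* spanned 1.74 to 55.8 TPM and *A230103L15Rik* 0.255 to 4.57 TPM, with the groups apart in both, so neither is placed in this order.

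Genes at the edges of the domain and beside it had groups that overlapped, as most genes tested did. *Atp10a*, a lipid flippase gene next to *Ube3a*, was at 19.2, 15.4 and 12.4 TPM in control and 16.8, 13.3 and 14.8 TPM in *Snd1* KO clones (-0.045 on the log2 scale, limma adjusted p = 0.963). *A230006K03Rik*, a long noncoding RNA between *Snrpn* and *Ndn*, was at 18.4, 11.7 and 1.83 TPM in control and 2.68, 0.428 and 7.79 TPM in KO clones. Its lowest control clone was again clone 3, and the difference of -1.31 (SE 0.89) did not pass the test (limma adjusted p = 0.717). *A230057D06Rik*, in the same interval, was at 25.8, 25.8 and 18.97 TPM against 18.6, 46.5 and 35.3 TPM (0.41, limma adjusted p = 0.758). Small RNA genes of that interval had few reads. *Mir344-2* had 39, 26 and 12 reads in the control lines against 17, 30 and 27, *Mir344c* had at most 2 in the control clones and 1, 12 and 2 in KO clones, and *Mir344*, *Mir344d-1* and *Gm23873* had at most 6 in any clone. None separated the groups.

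Of 15 genes beside the domain, 12 were tested, 0 were called by limma or by voom, 0 had an unadjusted p under 0.05, and 0 were higher or lower in every KO clone. Over all genes tested these shares were 7.96%, 9.69% and 4.03%, so counts of 0 among 12 genes are close to the background and nothing is read from them. Their differences ran from -0.85 to 0.094 on the log2 scale, with a median of -0.086. The GABA-A receptor subunit gene *Gabra5* differed by 0.094, and the ubiquitin ligase gene *Herc2* by -0.19. *Nipa1*, *Nipa2*, *Cyfip1* and *Tubgcp5*, which some human deletions of the domain also remove, differed by -0.13, 0.029, -0.13 and 0.025. *Klf13*, *Otud7a*, *Mtmr10* and *Fan1* differed by -0.27, -0.043, -0.17 and 0.084. *Chrna7*, a nicotinic receptor gene, had the lowest value, with 2.46, 5.15 and 0.661 TPM in control and 1.19, 0.288 and 1.15 TPM in KO clones, which overlap (limma adjusted p = 0.681). *Gabrg3*, *Oca2* and *Trpm1* were below the filter.

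Genes of the machinery around the domain were read from lists in the same fit. None of their members was called by limma or by voom. Of 22 genes for the upkeep of imprints, 19 were tested, 1 had an unadjusted p under 0.05, and 3 were higher and 0 lower in every *Snd1* KO clone, with a median of 0.13 on the log2 scale. The DNA methyltransferase *Dnmt3a* and the imprint-guarding zinc finger *Zfp445* each differed by 0.27, the chromatin remodeler *Hells* by 0.26 and the 5-methylcytosine oxidase *Tet1* by 0.74. Of 12 genes for the box C/D snoRNA particle, all 12 were tested, 0 had an unadjusted p under 0.05, and 2 were higher and 0 lower in every KO clone, with a median of 0.11. The core protein gene *Nop58* differed by 0.21, and the assembly factors *Znhit3*, *Pih1d1* and *Rpap3* by 0.18, 0.17 and 0.15. Over all genes tested, 7.96% had an unadjusted p under 0.05, 9.69% were higher in every KO clone and 4.03% lower in every one, so nothing is read from these counts.

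Of 14 genes for Sm proteins and their assembly, the partners of SmN, 13 were tested, 1 had an unadjusted p under 0.05, and 2 were higher in every KO clone, with a median of 0.033. The Sm genes *Snrpd3*, *Snrpd1* and *Snrpf* differed by 0.35, 0.23 and 0.20, and the assembly gene *Gemin5* by -0.20. Of 14 partners of MAGEL2, necdin and UBE3A, all 14 were tested and 0 had an unadjusted p under 0.05. The ubiquitin ligase *Trim27* was lower in every KO clone (-0.26), the deubiquitinase *Usp7* was higher in every one (0.23), and the proteasome-bound *Uchl5* and the receptor *Ngfr* differed by 0.23 and 0.32. These counts too are given beside the shares of all genes tested above, and nothing is read from them.

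Of 41 imprinted genes in other domains, 31 were tested, 0 were called by limma or by voom, and 10 had an unadjusted p under 0.05, which 7.96% of all genes tested had. In every *Snd1* KO clone 7 were higher and 4 lower, patterns that 9.69% and 4.03% of all genes tested had, with a median of 0.13. *Dlk1*, a paternally expressed membrane protein gene related to Notch ligands, was at 14.3, 15.02 and 9.09 TPM in control and 0.0289, 1.54 and 0 TPM in KO clones. Its groups did not overlap, and the difference of -3.30 on the log2 scale (SE 0.41) was not past the threshold (limma adjusted p = 0.238). *Plagl1*, a zinc finger growth regulator, was at 25.9, 31.7 and 23.5 TPM in control and 39.4, 69.2 and 71.5 TPM in KO clones (1.09, limma adjusted p = 0.537). The potassium channel *Kcnk9* was at 10.96, 6.93 and 3.22 TPM in control and 0.914, 2.58 and 2.00 TPM in KO clones (-1.43, limma adjusted p = 0.568). *Mest*, which encodes a hydrolase-like protein, was at 2.18, 3.54 and 0.0516 TPM in control and at most 0.154 TPM in KO clones, and control clone 3 lay within the KO range (-1.18, limma adjusted p = 0.607). Among the tested genes of these other domains, differences went in both directions.

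Genes whose levels followed those of *Snhg14* and *Snrpn* over the 6 clones are given as a description, among 11364 genes that averaged 5 TPM or more, by Pearson's r of log2(TPM + 1). For *Snhg14* these were *Ddx59* (r = 0.976), *Mospd2* (0.970), *Zbtb25* (0.967), *Erich1* (0.955) and *Tsnax* (0.951). For *Snrpn* they were *E130311K13Rik* (r = 0.991), *Sulf2* (0.988), *Dennd5b* (0.980), *Neo1* (0.977) and *Pigt* (0.975). These are the highest of many values over 6 clones, and all values of a clone share its depth and scaling.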

How the data were processed

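Total RNA from 3 control and 3 *Snd1* KO clonal MIN6 lines was sequenced by the authors as 100-base paired ends and processed on the Genialis platform. The authors deposited TPM values per gene, which sum to 1000000 per clone, and no counts were used. The submitters' processing notes name FastQC, Trimmomatic, HISAT2, HTSeq, DESeq2 and the build mm10. Versions, the handling of reads that match several places and the strand setting are not given in the sources used here. Of 53808 gene identifiers, 53706 matched GENCODE M21, and 92 ERCC rows were left out.

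The deposited TPM values of 17823 genes averaging 0.5 TPM or more were put on the log2(TPM + 1) scale. Groups were compared with limma 3.58.1 (mean-variance trend) under R 4.3.3, and p-values were adjusted by Benjamini-Hochberg over all genes tested. A count model was not the main test because the values are TPM, and the design was otherwise kept. Exact two-sided permutation tests compared single genes. TPM times the summed exon length of a gene gave whole reads, within 0.01, for 93.5% of values above 0 and for all clones in 92.5% of tested genes. Depth from these recovered reads was 25865183 to 33055380 reads per clone, above the reads per library that the study's methods state. The reason was not tested. Over the 6 clones 17246 values held 1 read, 9179 held 2, 5620 held 3 and 4048 held 4, with no excess of even numbers. Intervals and the floor of 3 reads cover counting error only and high counts are limited by the difference between clones. voom on these reads called 0 genes.

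Alternatives were pseudocounts of 0.1 and 0.01, no filter, a mean of at least 5 TPM, quantile and median ratio scaling, clone quality weights, a replicate block, leaving out each clone, no minimum fold change, voom, and TPM with each exonic base counted once. The genes and lists were chosen with earlier results of these data known. Named genes were the listed genes, *Snd1*, all genes beside the domain, small RNA genes with more than 3 reads, up to 4 genes per list with the largest differences, and the 5 most similar in pattern to *Snhg14* and to *Snrpn*. Genes withheld for other uses are not reported here. Any other gene is said to have been picked with its values in view. The labels name separate clones and no repeat cultures, so p-values measure the spread between clones. The script was tested on simulated data. Python 3.11.15, pandas 2.3.3, numpy 2.4.6 and matplotlib 3.10.9 were used.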

Additional observations from a re-analysis of the deposited data

How the results depend on the processing

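limma called 1 gene in all and 1 listed gene, and these counts were 0 and 0 without the filter, 0 and 0 by voom on recovered reads, and 895 and 3 with clone quality weights, which were highest for *Snd1* KO clone 3 at 3.91 and lowest for control clone 3 at 0.279. The 3 listed genes then were *Gm24966*, *A230103L15Rik* (-1.90, adjusted p = 0.0215, against 0.0215 to 0.938 over all alternatives) and *Mkrn3* (-1.65, adjusted p = 0.0385, against 0.0385 to 0.984). TPM with each exonic base counted once gave 3 genes in all. The difference of *Gm24966*, given as a description, was -4.15 without the filter, -4.10 by voom and -4.43 to -4.01 over clones left out. Leaving out each clone in turn gave 0 to 1 genes in all and 0 to 1 listed genes, with 1 kept only without *Snd1* KO clone 2, and 2 to 3 listed genes without overlap. The share of all genes without overlap was not taken for these smaller groups, so nothing is read from the latter count. With a replicate block by clone number 0 genes were called, listed genes included, while clones of equal number did not deviate together (r of 0.051, -0.12 and -0.074), so the numbers do not pair the clones. *Snhg14* turned to -0.070 under quantile normalization and ran from -0.068 to 0.21 over clones left out, with -0.050 without *Snd1* KO clone 3. *Snrpn* turned to 0.0055 with clone quality weights, and *Ndn* ran from -2.02 to 0.19 over clones left out. Of the other values for single listed genes under an alternative, 94 kept their direction and side of the threshold, though sizes of low genes depend on the pseudocount. With pseudocounts of 0.1 and 0.01 and by voom, *A230103L15Rik* was at -2.87, -3.07 and -3.05, *Ndn* at -1.73, -2.23 and -2.15, and *Mkrn3* at -1.53, -1.88 and -1.87. The median shift of all genes was 0.044, and -0.011 after quantile normalization. The causes were not tested. With 1 to 34 reads a clone, depth limits *Gm24966*, and the snoRNA copies at or under 4 reads do not allow a value for each.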
